A study of Mus musculus with 4 samples.

Results

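The genes described here are 41 genes of the DNA synthesis (S) phase of the cell cycle, most of them part of a list widely used to score S phase in single-cell data. They were matched by symbol among the 32272 gene rows of a mouse bone marrow multiome matrix, in which RNA and open chromatin were read from the same nuclei. All 41 were found, and each had at least 1 open chromatin peak within 1 kb of the interval listed for it. Over the kept nuclei, 39 of them held at least 200 UMIs (unique molecular identifiers, each standing for 1 captured RNA molecule). The other two, Gins2 with 138 UMIs and Ung with 182, entered the sums over the 41 genes but not the counts of genes.

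The nuclei came from Lin-cKit+ hematopoietic stem and progenitor cells (HSPCs) of 8-week-old male C57BL/6 mice. Lig mice carried silk ligatures on their molars for 14 d, a model of periodontitis, and Ctrl mice carried none. Marrow of 5 mice was pooled per condition, so that the RNA and the ATAC sample of each condition were 1 sample each, 4 samples in 4 groups without replicates. The matrix pools both conditions, and the suffix of its barcodes, 1 or 2, is tied to no sample by the labels. The nuclei are therefore given as library 1 and library 2, which belong to no group here, and ligature was not compared with control. With no replicates there was no test: values are given in both libraries, with exact 95% intervals that cover counting error only.

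Of 18961 barcodes, 13619 had at least 200 genes and 1000 to 50000 counts in peaks and were kept, 5905 in library 1 and 7714 in library 2. Their median depth was 1641 and 1516.5 UMIs. The libraries shared 72 barcode sequences among the kept nuclei. Genes of the ribosomal locus took 43.0% of the UMIs in library 1 and 53.2% in library 2, and levels are therefore given as counts per 1000000 UMIs outside 3 such genes (CPM). Nuclei were sorted into 20 clusters without using the 41 genes, other cell cycle genes or peaks near the 41 genes. Marker genes then named 12 classes, called for example pro-B-like, and 7 clusters stayed unnamed. Pro-B-like nuclei had all 8 of their markers raised, with the B lineage transcription factors Ebf1 and Pax5 among their leading genes. Cluster 13 held 278 nuclei of library 1 and 7 of library 2, so its library 2 values carry little weight.

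Before a cell copies its DNA, the ORC, Cdc6 and Cdt1 proteins load a ring-shaped helicase of Mcm2 to Mcm7 onto origins, and Cdc45 and the GINS complex later switch it on. Polymerase alpha with primase starts each strand, the clamp Pcna holds the replicating polymerases on DNA, and ribonucleotide reductase and thymidylate synthase supply the building blocks. E2F transcription factors, held back by pocket proteins until the cell commits to division, drive many of these genes together. In marrow, stem cells at the top of the hierarchy are known as mostly quiescent, while pro-B cells pass through rounds of rapid division, and maturing neutrophils leave the cycle.

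The promoters of the genes held the letters that E2F factors are known to read more often than promoters at large. RefSeq (GRCm38.p6) gave a window of 250 bases before to 50 bases after the start for 31 of the 41 genes. The promoter set used here held no window for Dscc1, Atad2, Usp1, Tipin, Rfc2, Mcm4, Gins2, Ccne2, Gmnn and Exo1. The search took 4 E2F octamers (TTTCCCGC, TTTGGCGC, TTTCGCGC and TTTGCCGC) on either strand, with overlaps allowed. They were present in 13 of 31 windows (41.9%) and in 744 of 32851 windows of all genes (2.26%). The genes with one were Casp8ap2, Cdc6, Cdca7, Clspn, Dtl, Hells, Mcm3, Mcm5, Mcm6, Mcm7, Pola1, Pold3 and Ubr7. The CCAAT box, read by the factor NF-Y, was in 22 of 31 windows (71%) against 37.4% of all windows. The cell cycle homology region (TTTGAA or TTCGAA), known from genes of mitosis, was in 5 of 31 (16.1%) against 19.2%. Promoters of G2/M genes, the genes of the later phases, held the E2F octamers in 2 of 47, the CCAAT box in 36 of 47 and the homology region in 35 of 47. Those of other DNA replication genes held them in 11, 19 and 7 of 45. Among the 41 genes, those higher in pro-B-like nuclei below held an E2F octamer in 3 of 10 windows. Such a match is a description of letters and not a measured binding site.

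The E2F octamers are shown, in capitals, for genes that rank among the 12 with the most UMIs or that were higher in pro-B-like nuclei below, where the octamer lies before the start of the gene. Each stretch is written along the gene's own strand, in lower case outside the motif, from Mcm6 (chr1:128359741-128359820, minus strand), Mcm7 (chr5:138172030-138172059, minus), Cdc6 (chr11:98908002-98908031, plus), Pola1 (chrX:93632250-93632329, minus), Dtl (chr1:191575545-191575624, minus) and Hells (chr19:38930917-38930946, plus). Mcm6 carried 3 matches, of which a pair overlaps on opposite strands.
Mcm6: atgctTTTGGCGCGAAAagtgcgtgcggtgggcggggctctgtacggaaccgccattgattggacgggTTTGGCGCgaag
Mcm7: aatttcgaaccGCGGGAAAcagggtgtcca
Cdc6: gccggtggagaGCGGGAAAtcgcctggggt
Pola1: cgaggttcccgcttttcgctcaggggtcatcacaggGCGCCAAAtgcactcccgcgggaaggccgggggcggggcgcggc
Dtl: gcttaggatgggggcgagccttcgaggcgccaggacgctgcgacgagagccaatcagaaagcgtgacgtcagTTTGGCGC
Hells: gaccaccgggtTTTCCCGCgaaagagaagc

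The CCAAT box is shown in capitals for the 3 genes with the most UMIs among those higher in pro-B-like nuclei whose windows held no E2F octamer. They are Pcna (chr2:132253251-132253280, minus strand), Rrm1 (chr7:102441589-102441668, plus) and Uhrf1 (chr17:56303294-56303323, plus), and the Pcna box lies on the strand opposite to the gene.
Pcna: aaccacgggtacgATTGGtccttgaggaga
Rrm1: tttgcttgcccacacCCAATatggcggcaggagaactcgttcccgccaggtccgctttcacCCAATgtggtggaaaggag
Uhrf1: gccacagcgccagCCAATcaggaatcaaga

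RNA of the 41 genes together was highest in pro-B-like nuclei in both libraries. The summed level there was 8054 CPM (7863 to 8248) in library 1 and 6090 CPM (5807 to 6382) in library 2, which is 1.66 and 1.45 times that of all other nuclei. Over all nuclei the level was 5313 CPM (5254 to 5372) in library 1 and 4279 CPM (4227 to 4333) in library 2. Next in both libraries, with erythroid progenitors taken as 1 class, came progenitors of plasmacytoid dendritic cells (pDCP-like). They stood at 6103 CPM (5887 to 6326) and 4953 CPM (4718 to 5196), or 1.16 and 1.17 times the rest. Their intervals did not meet those of pro-B-like nuclei in either library, but in library 2 they overlapped those of smaller classes such as MkP-like nuclei, described below. This class held 416 and 405 nuclei, and other clusterings gave its name to other nuclei. With cell cycle genes kept the name went to a cluster of 54 and 20 nuclei, which had 0.73 and 0.73 times the rest. With no correction between the libraries it went to a cluster of 50 and 30 nuclei, which had 0.62 and 0.85. In each of these clusterings a larger cluster with 3 of 7 pDCP markers raised, of 469 and 537 or of 534 and 448 nuclei, stayed unnamed, so the values are of different cells and not of the same class measured again.

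**Figure D1:**
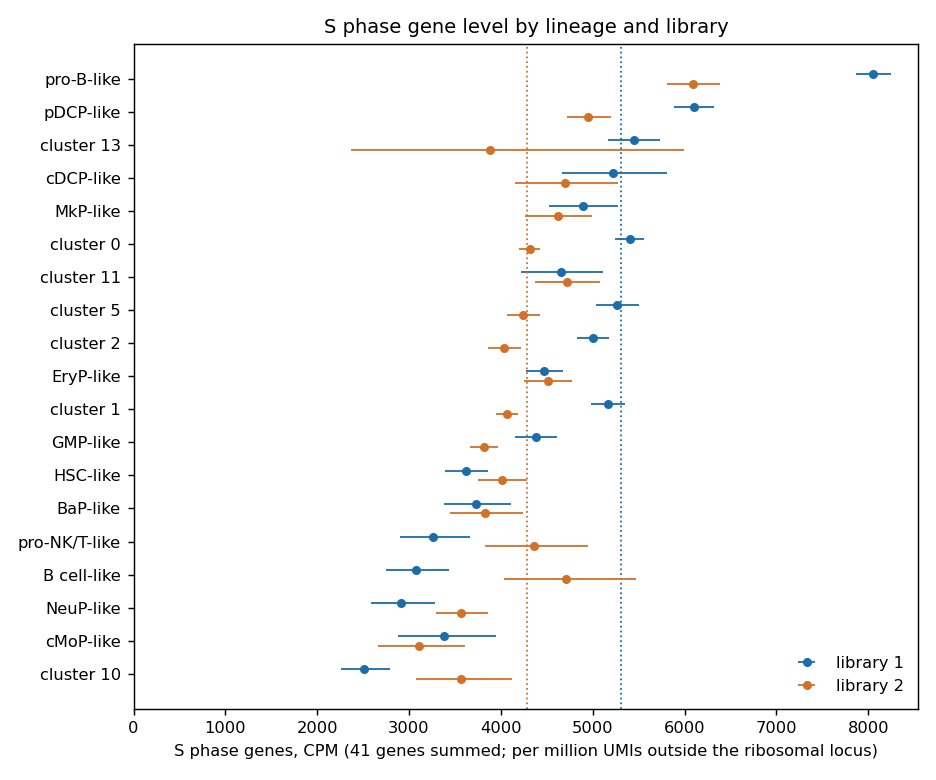
Summed RNA level of the 41 S phase genes (x axis, CPM) in each named class or numbered cluster (y axis) for library 1 (blue) and library 2 (orange), with bars for exact 95% intervals of counting error and dotted lines for all kept nuclei of each library. Pro-B-like nuclei stand at the top in both libraries, at 8054 and 6090 CPM, and the spread among the other classes is wider in library 1.

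The low end of the order differed between the libraries. Neutrophil progenitors (NeuP-like) had 2916 CPM (2585 to 3278) in library 1 and 3566 CPM (3290 to 3859) in library 2, below the rest in both at 0.54 and 0.83, though at 1.02 in library 2 when nuclei had at least 500 genes. Monocyte progenitors (cMoP-like) had 3383 CPM (2882 to 3946) and 3111 CPM (2663 to 3612), at 0.63 and 0.73 of the rest. HSC-like nuclei, the stem cell class, had 3619 CPM (3388 to 3862) in library 1, 0.67 of the rest (0.63 to 0.72). In library 2 they had 4011 CPM (3751 to 4286), 0.94 of the rest with an interval of 0.87 to 1.0003, and 1.006 with limits on halved peak counts. The median ratio of all genes with at least 200 UMIs was 0.74 and 0.84 in NeuP-like nuclei, beside 0.53 and 0.83 for the 39 genes. In library 2 the 39 genes were thus level with a typical gene there. These medians were 0.83 and 0.87 beside 0.58 and 0.63 in cMoP-like nuclei, and 1.01 and 1.09 beside 0.58 and 0.91 in HSC-like nuclei.

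B cell-like and pro-NK/T-like nuclei stood below the rest in library 1, at 0.575 (0.51 to 0.64) and 0.61 (0.54 to 0.69). In library 2 their ratios, 1.10 (0.94 to 1.28) and 1.02 (0.89 to 1.16), had intervals that include 1, and the B cell-like ratio was 0.74 with at least 500 genes per nucleus. The pro-NK/T-like ratio of library 2 was 0.9895 to 0.9973 under 3 alternatives. B cell-like nuclei had 3077 CPM (2751 to 3430) and 4711 CPM (4029 to 5474), and pro-NK/T-like nuclei had 3265 CPM (2897 to 3668) and 4358 CPM (3822 to 4948). Library 2 held 84 and 91 nuclei of these classes. Granulocyte-monocyte progenitors (GMP-like) lay below the rest in both libraries, at 4377 CPM (4151 to 4613) and 3813 CPM (3663 to 3967), or 0.82 and 0.88. The median ratio of all genes with at least 200 UMIs was 0.893 and 0.885 there, beside 0.774 and 0.92 for the 39 genes. In library 2 the 39 genes were therefore not below a typical gene. Megakaryocyte progenitors (MkP-like), with 4889 and 4618 CPM, and dendritic progenitors (cDCP-like), with 5216 and 4694 CPM, lay close to the rest. The ratios were 0.92 (0.85 to 0.99) and 1.08 (0.997 to 1.17) for MkP-like and 0.98 (0.88 to 1.09) and 1.10 (0.97 to 1.24) for cDCP-like nuclei, so that only the library 1 interval of MkP-like nuclei left out 1. Basophil progenitors (BaP-like) were below the rest in both, at 3732 CPM (3382 to 4109) and 3828 CPM (3451 to 4236). For every class or cluster but the pro-B-like one, the rest includes the pro-B-like nuclei, here and in all other paragraphs. These nuclei held 6785 of the 31156 S phase gene UMIs of library 1 and 1744 of the 25132 of library 2. Their high level raises that of the rest, and by more in library 1. Their part in ratios below 1, or in differences of a ratio between the libraries, was not tested.

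Erythroid progenitors (EryP-like) joined clusters with different levels. The cluster with the globin genes Hba-a1, Hba-a2 and Hbb-bs among its leading 10 genes had 5327 CPM (4869 to 5816) and 5808 CPM (5129 to 6553). In library 2 this cluster alone was above the pDCP-like level of 4953 CPM. Its interval there overlapped those of pDCP-like (4718 to 5196) and pro-B-like nuclei (5807 to 6382). The other, whose leading 10 genes include Zg16, Car1, a carbonic anhydrase of erythroid cells, and Kel, a blood group antigen, had 4227 CPM (4008 to 4455) and 4235 CPM (3964 to 4520). The intervals of these clusters did not meet in either library, while the class as a whole stood at 0.83 (0.79 to 0.87) and 1.06 (0.996 to 1.12) of the rest. The library 2 value was 0.97 under median-of-ratios scaling. Among all 19 classes and clusters, the levels spanned 2511 to 8054 CPM in library 1 and 3111 to 6090 CPM in library 2.

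Sequencing depth moved with part of this order. The median UMIs per nucleus outside the ribosomal locus were 1057 and 683 in pro-B-like nuclei, 1136 and 792 in pDCP-like, 915.5 and 608.5 in HSC-like, 421 and 458 in NeuP-like and 494 and 366.5 in B cell-like nuclei. GMP-like nuclei, at 937 and 797, were below pro-B-like nuclei in library 1 and above them in library 2. The part of depth in the order of the classes was not tested.

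Gene by gene, pro-B-like nuclei were at least 1.5-fold above all other nuclei in both libraries for 14 of the 39 genes, or 35.9%, against 10.1% of all 6904 genes with at least 200 UMIs. None of the 39 was at least 1.5-fold lower in both, against 10.1% of all genes. The 14 were Cdc6, Gmnn, Pcna, Tyms, Rrm1, Rrm2, Clspn, Dscc1, Usp1, Exo1, Brip1, Uhrf1, E2f8 and Ubr7. For 10 of them the interval of the ratio lay above 1 in both libraries, the exceptions being Gmnn, Dscc1, Exo1 and Ubr7 in library 2. Of the 39 genes, 37 were above 1 in library 1 and 37 in library 2, where 3472 and 4037 of all 6904 genes were. In both libraries 36 were above 1 and 18 had intervals above 1, for which no share of all genes is given. The median ratio of the 39 was 1.70 in library 1 and 1.46 in library 2, beside 1.0 and 1.09 for all genes. A fold of 1.5 was reached by 23 genes in library 1 and by 18 in library 2, each library taken by itself. Of all 6904 genes, 976 and 1484 reached it. With median-of-ratios scaling, or with nuclei of at least 500 genes, 9 of the 39 were at least 1.5-fold higher in both libraries. The 10.1% of all genes belongs to the main setting, and no share of all genes is given for these alternatives.

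**Figure D2:**
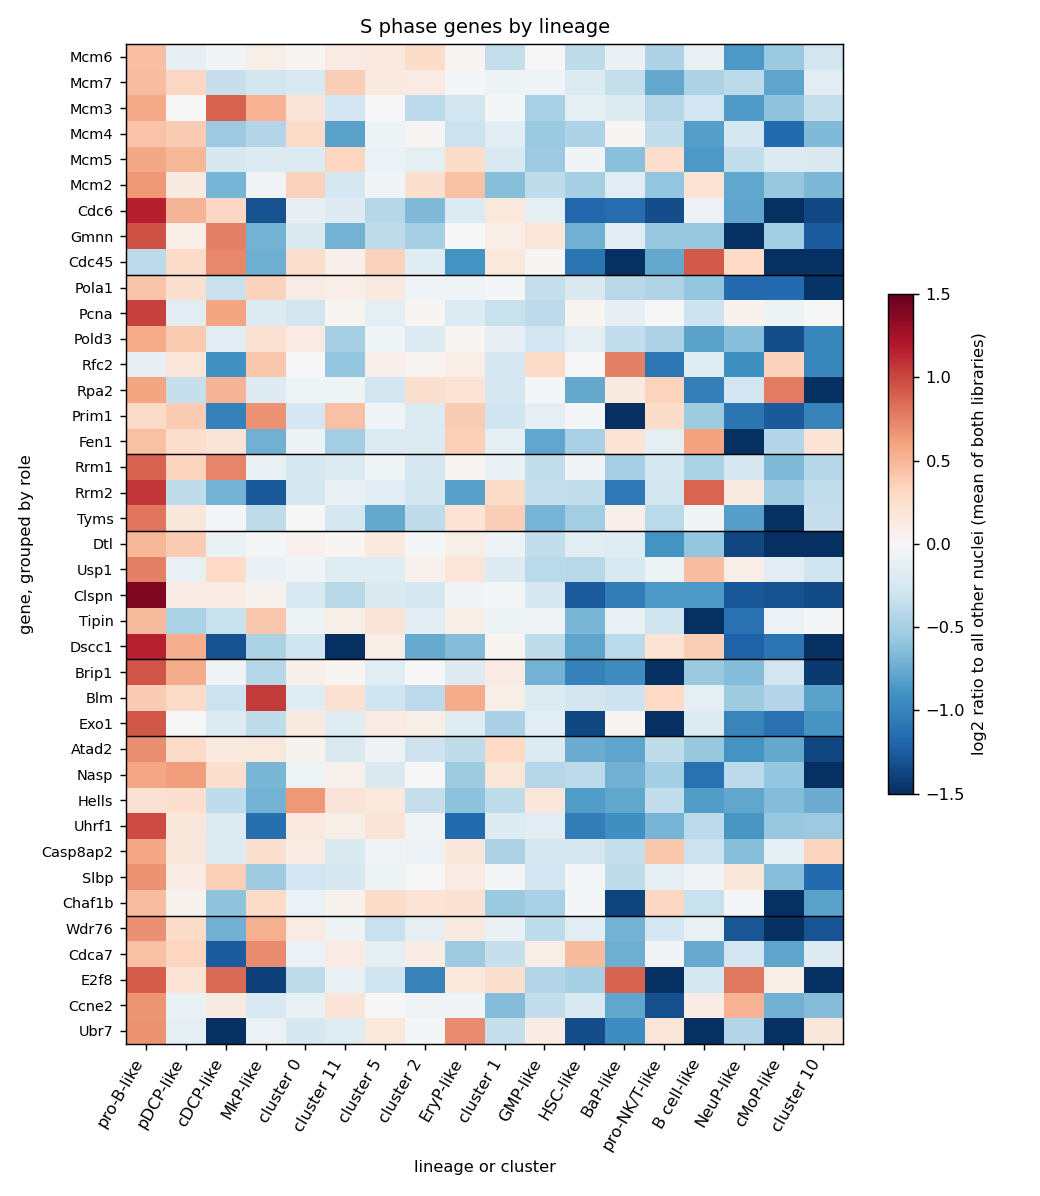
Log2 ratio of each gene's RNA level in a class or cluster to that in all other nuclei, as the mean of both libraries (colour, from blue for lower to red for higher, ending at 1.5 in either direction), for 39 genes in rows grouped by role and 18 classes or clusters in columns, without cluster 13. The pro-B-like column is red for all but Cdc45 and Rfc2, and the columns at the right, such as cMoP-like and cluster 10, are mostly blue but rest on few UMIs per gene.

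Genes that supply deoxynucleotides had the largest ratio of any role in pro-B-like nuclei, 2.05 (1.86 to 2.26) in library 1 and 1.72 (1.47 to 2.004) in library 2. Rrm2, the small subunit of ribonucleotide reductase, was at 166 CPM in pro-B-like nuclei of library 1 and 133 CPM in library 2, 2.60 and 1.68 times the rest. Rrm1, the large subunit, was at 423 and 402 CPM, 1.93 and 1.76 times the rest. Tyms, thymidylate synthase, was at 99.7 and 87.3 CPM, 1.90 and 1.61 times the rest. All 3 genes were thus among the 14.

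Fork protection and checkpoint genes had a ratio of 1.69 (1.55 to 1.83) and 1.67 (1.43 to 1.94), nearly equal in the libraries. Clspn, the claspin adaptor that lets Atr activate Chk1 at stalled forks, had the largest ratio of all 41 genes when the libraries were averaged. It was at 223 CPM (192 to 257) in library 1 and 161 CPM (118 to 214) in library 2, 2.68 and 2.59 times the rest. Dscc1, a subunit of an alternative clamp loader that acts in sister chromatid cohesion, was at 45.1 and 27.9 CPM, 2.16 and 2.29 times the rest, from 38 and 8 UMIs. Usp1, which removes ubiquitin from Pcna, was at 158 and 119 CPM, 1.77 and 1.62 times the rest. Dtl, the receptor of the ubiquitin ligase that destroys Cdt1 in S phase, was at 377 and 293 CPM with ratios of 1.36 and 1.45, and Tipin, a fork stabilizer, had 1.502 and 1.29.

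Helicase loading and activation had a ratio of 1.54 (1.45 to 1.64) and 1.40 (1.25 to 1.55). Cdc6, the helicase loader, was at 102 CPM in library 1 and 101 CPM in library 2, 2.70 and 1.88 times the rest. Gmnn, geminin, which blocks a renewed loading by binding Cdt1, was at 110 and 62.9 CPM, 2.41 and 1.55 times the rest. The 6 subunits of the helicase ring had smaller ratios than Cdc6 and Gmnn in library 1, but in library 2 Mcm2 was above both. Their ratios were 1.28 and 1.92 for Mcm2, 1.43 and 1.54 for Mcm3, 1.70 and 1.07 for Mcm4, 1.76 and 1.27 for Mcm5, 1.35 and 1.39 for Mcm6, and 1.39 and 1.36 for Mcm7. None of the 6 reached 1.5 in both libraries. Cdc45, the helicase activator, had the smallest ratio of the 39 genes when the libraries were averaged, at 34.4 and 20.95 CPM or 0.90 (0.59 to 1.34) and 0.65 (0.23 to 1.44), so its interval included 1 in both. Gins2, a subunit of the GINS complex, gave 16 and 3 UMIs in pro-B-like nuclei.

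Polymerase, clamp and fork enzymes had a ratio of 1.57 (1.48 to 1.66) and 1.38 (1.23 to 1.53). Pcna was at 523 CPM (476 to 575) in library 1 and 384 CPM (316 to 463) in library 2, 2.41 and 1.71 times the rest. Pola1, the catalytic subunit of polymerase alpha and the gene with the most UMIs of the 41, was at 766 and 499 CPM, only 1.37 and 1.33 times the rest. Pold3 of polymerase delta had ratios of 1.48 and 1.46, Rpa2, which coats single-stranded DNA, 1.78 and 1.28, and the flap endonuclease Fen1 1.498 and 1.23. Rfc2 of the clamp loader had intervals that included 1, at 0.85 (0.65 to 1.09) and 1.004 (0.65 to 1.49), and the primase Prim1 was at 1.61 and 0.92.

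Among repair genes (1.59 and 1.54), Exo1, an exonuclease of mismatch repair, was at 79.5 and 52.4 CPM, 2.15 and 1.68 times the rest. Brip1, a helicase of the Fanconi anemia pathway, was at 203 and 122 CPM, 1.82 and 2.02 times the rest. The helicase Blm, which suppresses sister chromatid exchange, stood at 1.30 and 1.31. Ung, which cuts uracil out of DNA, gave 8 UMIs and 1 UMI in pro-B-like nuclei.

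Chromatin assembly and histone supply had 1.74 (1.65 to 1.83) in library 1 and 1.37 (1.24 to 1.504) in library 2, the widest gap between the libraries of any role. Uhrf1, which brings DNA methyltransferase to newly copied DNA, was at 337 and 230 CPM, 2.38 and 1.63 times the rest. Atad2, a bromodomain ATPase of chromatin, was at 852 CPM (791 to 917) and 534 CPM (453 to 626), 1.79 and 1.47 times the rest. The histone chaperone Nasp had 1.85 and 1.21, Slbp, which binds the stem loop of histone mRNA, 1.85 and 1.37, and Casp8ap2, which acts in processing that mRNA, 1.42 and 1.57. Hells, a helicase needed for DNA methylation, was barely higher at 1.30 and 1.06, and Chaf1b of chromatin assembly factor 1 had 1.43 and 1.34.

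The remaining genes, cell cycle regulators and others, had 1.60 (1.43 to 1.79) and 1.59 (1.30 to 1.93). E2f8, an E2F that represses transcription, was at 104 and 87.3 CPM, 1.80 and 1.97 times the rest. Ubr7, a ubiquitin ligase that acts on histones, was at 57.0 and 52.4 CPM, 1.61 and 1.58 times the rest. Ccne2 (cyclin E2), which starts S phase with Cdk2, had 2.22 and 1.13, Wdr76 1.41 and 1.84, and Cdca7, a partner of Hells, 1.40 and 1.31.

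In HSC-like nuclei, 9 of the 39 genes were at least 1.5-fold lower in both libraries, against 6.55% of all genes. They were Cdc6, Cdc45, Clspn, Exo1, Brip1, Uhrf1, Hells, Atad2 and Ubr7. The interval lay below 1 in both libraries for 4 of them, Clspn, Uhrf1, Hells and Atad2. Atad2 was at 294 CPM in library 1 and 246 CPM in library 2, 0.55 and 0.66 of the rest. Uhrf1 was at 83.5 and 73.0 CPM, 0.48 and 0.49 of the rest, Hells at 147 and 110 CPM, 0.57 and 0.55, and Clspn at 55.7 and 22.8 CPM, 0.53 and 0.33.

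The roles were not lowered alike in HSC-like nuclei of library 2. Chromatin assembly genes were below the rest in both libraries, at 0.59 (0.51 to 0.67) and 0.78 (0.68 to 0.90). Repair genes were at 0.70 (0.52 to 0.93) and 0.62 (0.39 to 0.93), and fork protection genes at 0.73 (0.60 to 0.89) and 0.78 (0.60 to 0.98). Helicase genes, in contrast, were at 0.62 (0.53 to 0.72) in library 1 but 0.98 (0.85 to 1.13) in library 2. Mcm6, at 0.54 (0.38 to 0.75) and 1.09 (0.80 to 1.46), followed that pattern. Deoxynucleotide supply stood at 0.72 and 1.10, and polymerase and clamp genes at 0.76 and 1.08. The largest ratios were those of Cdca7, at 1.23 and 1.58, Pcna, at 0.79 and 1.35, and Rfc2, at 0.98 and 1.01. The smallest was that of Exo1, at 0.54 and 0.28, from 6 and 2 UMIs.

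NeuP-like nuclei had 10 of 39 genes lower, a share of 25.6% that was close to the 22.3% of all genes in the same nuclei. They included Dtl, at 72.6 and 128 CPM or 0.25 and 0.61 of the rest, and Atad2, at 270 and 215 CPM or 0.51 and 0.57. Only these 2 had intervals below 1 in both libraries. Pcna stood at 228 and 284 CPM, 0.87 and 1.23 of the rest, and E2f8 had the largest ratio when the libraries were averaged, 1.29 and 2.33. Ccne2, at 1.46 and 1.41, and Cdc45, at 1.67 and 0.91, came next from 5 to 9 UMIs each with intervals that included 1, and Gmnn was lowest, with 0 UMIs in library 1 and 6 in library 2. Fork protection genes were at 0.39 (0.25 to 0.60) and 0.78 (0.58 to 1.01) in these nuclei. In cMoP-like nuclei 11 of 39 were lower, against 18.9% of all genes, with Pola1 at 251 and 181 CPM, 0.42 and 0.47 of the rest. Only Pola1 had an interval below 1 in both libraries there, and the median gene of the 39 gave 3 and 3 UMIs. In pro-NK/T-like nuclei 9 were lower, against 12.4%, and no interval lay below 1 in both libraries. In B cell-like nuclei 4 were lower, against 14.7%, again with no such interval, and 1 was higher, Rrm2, against 10.6%, from 16 and 5 UMIs.

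Cluster 10 had the most genes lowered, 15 of 39, against 12.9% of all genes. Among them was Dscc1, with 0 UMIs in both libraries, for which no fold can be given. The cluster stayed unnamed because its leading genes were not markers, although all 8 pro-B markers were raised in it. Pola1 was at 223 and 134 CPM there, 0.37 and 0.35 of the rest, Dtl at 86.3 and 76.7 CPM, 0.29 and 0.37, Nasp at 79.2 and 76.7 CPM, 0.29 and 0.34, and Atad2 at 158 and 192 CPM, 0.29 and 0.51. These 4 genes had intervals below 1 in both libraries. Pcna was near the rest at 0.80 and 1.24. The largest ratios were Casp8ap2 at 1.19 and 1.34, Fen1 at 0.84 and 1.58, and Ubr7 at 0.74 and 1.70, all with intervals that included 1. Thus the pro-B markers were raised both in the class with the highest level of the 41 genes and in a cluster with one of the lowest, 2511 CPM (2255 to 2789) and 3567 CPM (3073 to 4119). The median depth of cluster 10 outside the ribosomal locus was 526 and 352 UMIs, and its median member gene gave 6 and 4 UMIs.

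Other myeloid and erythroid classes had few genes past the fold. GMP-like nuclei had 2 lower, Tyms and Brip1, against 11.4% of all genes. Brip1 was at 84.5 and 37.4 CPM there, 0.67 and 0.56 of the rest with intervals below 1. The largest ratio in GMP-like nuclei was that of Rfc2, at 1.33 and 1.12, followed by Gmnn, at 1.08 and 1.18, and Hells, at 1.11 and 1.14, all with intervals that included 1. The smallest was that of Fen1, at 0.36 (0.11 to 0.84) and 0.95 (0.63 to 1.39). EryP-like nuclei had 2 lower, against 9.13%, Cdc45 and Uhrf1, the latter at 56.9 and 92.6 CPM or 0.32 (0.20 to 0.48) and 0.62 (0.40 to 0.94). The largest ratios in EryP-like nuclei were Ubr7 at 1.25 and 2.14, Blm at 1.62 and 1.32, and Mcm2 at 1.23 and 1.498. BaP-like nuclei had 4 lower, against 12.2%, and Atad2, at 0.56 and 0.60, had intervals below 1. They also had 2 higher, Rfc2 and E2f8, against 5.45%, from 9 to 16 UMIs each and with intervals that included 1 in at least 1 library. E2f8 was at 1.69 and 2.004 and Rfc2 at 1.56 and 1.83. The next ratio was that of Fen1, at 0.63 (0.13 to 1.87) and 2.12 (1.01 to 3.96) from 3 and 10 UMIs, and the lowest that of Cdc45, with 4 UMIs in library 1 and 0 in library 2.

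Genes higher outside pro-B-like nuclei were few. Hells in cluster 0, a large unnamed cluster of 848 and 1643 nuclei, was the 1 gene of 39 at least 1.5-fold higher there, against 0.782% of all genes. Hells was at 371 and 273 CPM, 1.59 (1.40 to 1.80) and 1.54 (1.35 to 1.75) times the rest, and its interval lay above 1 in both libraries. None of the 39 was lowered in cluster 0, against 8.39% of all genes. Next came Mcm2, at 1.34 and 1.22, and Mcm4, at 1.24 and 1.20, while E2f8 was lowest at 0.83 and 0.72. In cDCP-like nuclei Mcm3, at 1.75 (1.03 to 2.78) and 1.95 (1.13 to 3.15), and Rrm1, at 1.67 (1.09 to 2.45) and 1.66 (1.05 to 2.49), were 2 of 39 higher, against 9.4% of all genes, from 17 to 26 UMIs each, with intervals above 1 in both libraries, and 2 were lower, Rfc2 and Rrm2, against 14.9%. MkP-like nuclei had 1 higher, Blm, against 7.16%, at 149 and 170 CPM or 1.57 (0.95 to 2.45) and 2.72 (1.70 to 4.14). They had 3 lower, Rrm2, Uhrf1 and E2f8, against 9.78%, none with an interval below 1 in both libraries. Cdca7 stood at 1.46 and 1.82 and Prim1 at 2.05 and 1.25 in MkP-like nuclei, and E2f8 was lowest at 0.23 and 0.63.

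In the other unnamed clusters few genes passed the fold. Cluster 2 had 3 of 39 lower, Cdc6, Dscc1 and E2f8, against 4.48% of all genes, and E2f8 was at 30.3 and 27.2 CPM there, 0.44 (0.26 to 0.70) and 0.56 (0.30 to 0.98) of the rest. Its largest ratios were Mcm6 at 1.11 and 1.32, Rpa2 at 0.99 and 1.40, and Mcm2 at 1.08 and 1.28. In cluster 1 the largest ratios were Tyms at 1.20 and 1.38, Atad2 at 1.33 and 1.14, and Rrm2 at 1.22 and 1.20, and the smallest was Ccne2 at 0.51 and 0.80. Cluster 5 ranged from Cdc45, at 1.72 and 0.95, Chaf1b, at 1.34 and 1.09, and Tipin, at 1.32 and 0.99, down to Tyms, at 0.62 and 0.56. In cluster 11 Prim1 was at 1.25 and 1.48, from 6 and 9 UMIs, Mcm7 at 1.35 and 1.24, and Mcm5 at 1.48 and 1.06, and Dscc1 was lowest, with 2 and 0 UMIs. As for every class, the order here is that of the mean of both libraries on the log scale. Cluster 13 stood apart, with 278 nuclei in library 1 and 7 in library 2, none of 7 markers raised for the class that came nearest, and a median of 1792.5 peak counts in library 1 against 19471 for all nuclei of that library. Past the fold it had Cdc45 higher, against 1.43% of all genes, and Clspn and Blm lower, against 17.1%, but library 2 gave 1, 0 and 0 UMIs of these genes.

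The pDCP-like nuclei, which ranked next to pro-B-like nuclei among the classes for the sum, had 0 of 39 genes higher by 1.5-fold in both libraries, against 2.13% of all genes. There, 31 genes were above 1 in library 1 and 31 in library 2, where 3138 and 3488 of all 6904 genes were. Nasp had the largest ratio, at 364 and 368 CPM or 1.41 and 1.68 times the rest, and Tipin the smallest, at 0.69 and 0.75. Brip1 was at 159 and 101 CPM, 1.31 and 1.65 times the rest, and Dscc1 at 1.09 and 1.93. By role, chromatin assembly genes were at 1.19 (1.11 to 1.27) and 1.29 (1.18 to 1.41) and helicase genes at 1.16 (1.06 to 1.26) and 1.14 (1.02 to 1.26).

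Among the classes and clusters whose nuclei numbered 100 or more in both libraries, 29 of the 41 genes had their highest level in pro-B-like nuclei. The exceptions were Mcm3, Blm, Cdca7, Prim1 and Chaf1b in MkP-like nuclei, Rfc2, E2f8 and Fen1 in BaP-like nuclei, Hells in cluster 0, Cdc45 in cluster 11, Ung in cluster 5 and Gins2 in cluster 10. Each of these levels had an interval that overlapped that of pro-B-like nuclei in both libraries. The 12 genes with the most UMIs held 62.2% of all 56288 UMIs of the 41 genes, so the sum largely follows them. Over all nuclei, Pola1 was at 590 CPM in library 1 and 382 CPM in library 2, Atad2 at 529 and 371, Dtl at 291 and 206, and Nasp at 268 and 228. Pcna was at 261 and 232 CPM, Rrm1 at 248 and 237, Mcm6 at 260 and 198, and Hells at 253 and 198. Mcm7 was at 160 and 169 CPM, Uhrf1 at 170 and 146, Mcm3 at 164 and 149, and Mcm4 at 141 and 121, so that Mcm7 alone of the 12 was not lower in library 2. UMIs of nuclear RNA also grow with gene length, so these totals are no order of expression.

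Other genes of replication followed the same class, and genes of the later phases did so by more. Among replication genes outside the 41, pro-B-like nuclei had 14 of the 48 with at least 200 UMIs higher in both libraries and 0 lower, each against 10.1% of all genes, with a median ratio of 1.27 and 1.39. Dck, which salvages deoxycytidine, was at 4.14 and 4.81 times the rest, the histone chaperone Asf1b at 3.69 and 4.13, and Ccna2 (cyclin A2) at 3.40 and 2.84. Of the E2F and pocket protein genes, 3 of 13 were higher, against the same share. The activator E2f2 was at 287 and 171 CPM, 6.84 and 7.30 times the rest, the repressor E2f7 at 5.29 and 6.91, and the pocket protein Rbl1 at 2.27 and 1.97. E2f1, the best known activator, was not among them, at 29.7 and 10.5 CPM or 0.73 (0.46 to 1.10) and 0.31 (0.06 to 0.92).

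G2/M genes, which serve the time between S phase and cell division, were higher in pro-B-like nuclei for 41 of 48, against 10.1% of all genes, with median ratios of 2.63 and 2.08. Cenpf, a kinetochore protein, was at 472 and 405 CPM, 4.90 and 5.39 times the rest. Hmmr, which acts at the spindle, was at 3.62 and 4.65, and Dlgap5, a spindle protein, at 5.23 and 2.53. In other nuclei the S phase and G2/M sums did not always lie at like distances from the rest. In NeuP-like nuclei the S phase sum was 0.545 and 0.829 times the rest and the G2/M sum 1.02 (0.95 to 1.09) and 1.13 (1.06 to 1.19), and in cMoP-like nuclei they were 0.635 and 0.725 against 0.99 (0.89 to 1.09) and 0.95 (0.84 to 1.06). In cluster 0 the summed level of the 41 genes was 1.02 and 1.01 times the rest, that of the G2/M genes was 0.60 and 0.73, and 16 of 48 were lower, against 8.39% of all genes. In cDCP-like nuclei 12 of 48 G2/M genes were higher, against 9.4%, and their sum was at 1.60 and 1.47, with the S phase sum at 0.98 and 1.10. GMP-like nuclei had 12 of the 48 lower, against 11.4%, with G2/M sums of 0.62 and 0.76. HSC-like nuclei had 10 lower, against 6.55%, with sums of 0.63 and 0.85. The rest in these comparisons includes the pro-B-like nuclei. They held 14378 of the 46563 G2/M UMIs of library 1 and 3754 of the 35252 of library 2, which raises the G2/M level of the rest. Their part in the G2/M ratios and counts of other classes, or in distances between the S phase and G2/M sums, was not tested.

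Within a nucleus, the 41 genes gave few UMIs. When each nucleus was thinned to 1000 UMIs outside the ribosomal locus, 2684 nuclei of library 1 and 1385 of library 2 were deep enough. Of these, 83.2% (81.8 to 84.6) and 72.8% (70.4 to 75.1) held at least 3 UMIs of the 41 genes. Among pro-B-like nuclei the share was 94.0% (91.3 to 96.1) of 418 and 87.5% (76.8 to 94.4) of 64. Before thinning it was 89.5% of 759 and 74.2% of 387. In pDCP-like nuclei it was 88.8% of 267 and 82.8% of 93, in GMP-like 75.4% of 142 and 63.7% of 171, and in HSC-like 58.4% (48.2 to 68.1) of 101 and 81.5% (61.9 to 93.7) of 27. Only nuclei of at least 1000 UMIs enter these shares, for HSC-like nuclei 101 of 254 in library 1 and 27 of 336 in library 2. The shares after thinning thus describe the deeper nuclei of each class.

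A share with 3 UMIs is not a share of nuclei in S phase, since classes with the lowest sums also had it. Pro-NK/T-like nuclei had 42.1% of 19 and 78.6% of 14 after thinning, and only 12 and 3 B cell-like nuclei were deep enough. Before thinning, 20.1% and 31.0% of B cell-like nuclei had at least 3, at a median of 494 and 366.5 UMIs. At least 10 UMIs of the 41 genes were held by 31.3% (26.9 to 36.0) of thinned pro-B-like nuclei in library 1 against 10.9% (9.65 to 12.3) of the other nuclei. In library 2 it was 4.69% (0.98 to 13.1) against 2.88% (2.04 to 3.93), so the intervals parted in library 1 and overlapped in library 2.

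Over all nuclei, the counts also varied more from nucleus to nucleus in library 1. The variance of the thinned counts was 2.11 times their mean over all nuclei of library 1 and 1.45 times in library 2, where equal nuclei would give a ratio near 1. These nuclei mix classes in shares that differ between the libraries. The part of this make-up, or of the mean count, in the ratio was not tested. In pro-B-like nuclei the ratio was 2.003 and 1.25. In cluster 2, which raised all 6 markers of a lymphoid-primed multipotent progenitor class (MPP4) but stayed unnamed, it was 2.69 in 311 nuclei and 2.57 in 98. There, 16.1% and 6.12% of nuclei had at least 10 UMIs of the 41 genes although its sum was 0.94 of the rest in both libraries.

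In pro-B-like nuclei of library 1, G2/M UMIs were fewer where UMIs of the 41 genes were more. Per nucleus thinned to 1000 UMIs, the mean number of G2/M UMIs was 22.0 (20.2 to 23.9) in 25 nuclei with 0 to 2 UMIs of the 41 genes and 19.9 (19.0 to 20.8) in 96 nuclei with 3 to 5. It was 18.2 (17.5 to 18.8) in 166 nuclei with 6 to 9 and 14.0 (13.3 to 14.6) in 131 nuclei with 10 or more. Nuclei with at least 6 had 0.80 (0.76 to 0.84) times the G2/M UMIs of nuclei with at most 5. In library 2 the ratio was 1.07 (0.93 to 1.24) from 29 and 35 nuclei. With nuclei thinned to 500 UMIs and split at 3 UMIs of the 41 genes, it was 0.81 (0.76 to 0.85) in library 1 and 0.92 (0.84 to 1.004) in library 2, from 176 and 130 nuclei there. Without thinning it was 1.30 (1.25 to 1.35) and 1.20 (1.13 to 1.29), so in library 1 the direction was the opposite without thinning.

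**Figure D3:**
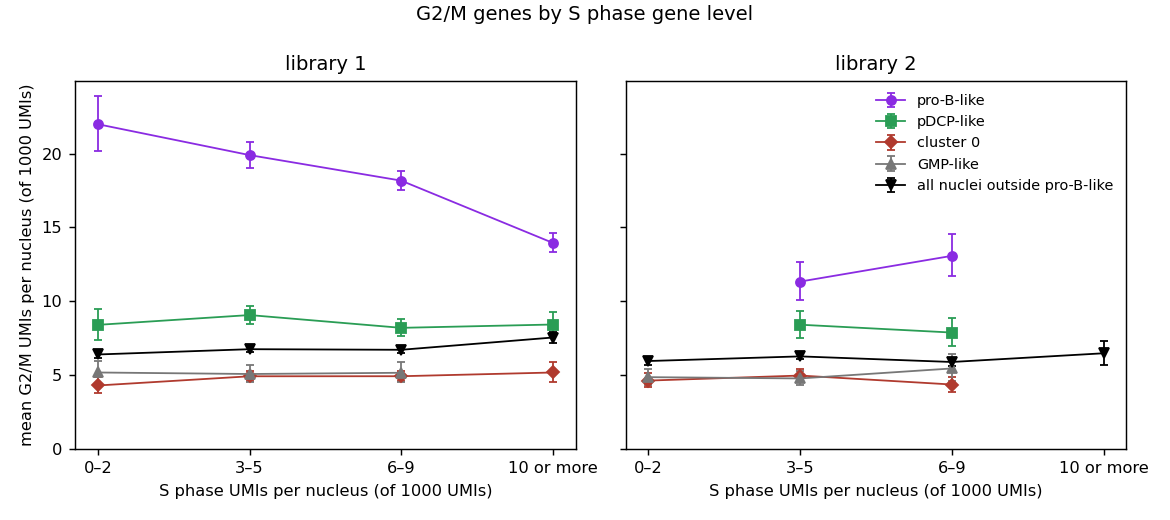
Mean G2/M UMIs per nucleus (y axis) in nuclei grouped by their UMIs of the 41 S phase genes (x axis), both after thinning to 1000 UMIs, for pro-B-like, pDCP-like, cluster 0, GMP-like and all nuclei outside pro-B-like, with exact 95% intervals of counting error and only points of at least 20 nuclei. The pro-B-like line of library 1 runs down from 22.0 to 14.0, the library 2 line has points at 11.3 and 13.1, and the other lines are nearly flat.

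Outside pro-B-like nuclei the ratio of G2/M UMIs at 1000 UMIs was 1.04 (1.01 to 1.08) in library 1 and 0.97 (0.92 to 1.02) in library 2. At 500 UMIs it was 1.15 (1.11 to 1.19) and 1.04 (1.005 to 1.07), and without thinning 1.99 (1.94 to 2.03) and 1.56 (1.52 to 1.60). At 1000 UMIs it was above 1 in library 1 for HSC-like nuclei, 1.52 (1.27 to 1.81), for EryP-like nuclei, 1.12 (1.01 to 1.25), and for cluster 2, 1.45 (1.32 to 1.58), and below 1 for cluster 13, the cluster of few peak counts, 0.84 (0.73 to 0.97). At 500 UMIs HSC-like nuclei had 1.26 (1.04 to 1.52) in library 1 and 1.06 (0.89 to 1.25) in library 2, and cluster 13 of library 1 had 0.90 (0.77 to 1.06). Cluster 2 of library 2 stood at 1.02 (0.88 to 1.20), and at 1.23 (1.11 to 1.37) when thinned to 500 UMIs. Over all nuclei, pro-B-like ones included, it was at 1000 UMIs 1.17 (1.14 to 1.20) and 1.02 (0.97 to 1.07). The other replication genes were higher in the nuclei with at least 6 UMIs of the 41 genes, at 1.41 (1.35 to 1.46) and 1.31 (1.22 to 1.40). The lists share the fixed total of 1000 UMIs in each nucleus.

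Chromatin at the 41 genes was open in every class and more so in pro-B-like nuclei. Within 1 kb of the intervals listed for the genes lay 50 peaks, which for 10 genes were also near another gene. For genes such as Pola1 and Pcna this interval is a single base at the start, so the peaks do not cover whole genes. Scaled likewise to 1000000 ATAC counts, these peaks held 2601 (2566 to 2637) in pro-B-like nuclei of library 1 and 2480 (2424 to 2536) in library 2, 1.31 (1.29 to 1.33) and 1.29 (1.26 to 1.32) times all other nuclei. All promoter peaks together had a ratio of 1.08 and 1.09 in the same nuclei. Every one of the 41 genes had a ratio above 1 in both libraries, and for 31 of them the interval lay above 1 in both. The same counts were not made for other genes.

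Few single peaks passed the fold. Of the 50 peaks, 5 were at least 1.5-fold higher in both libraries, against 8.35% of 35480 promoter peaks, and 2 were at least 1.5-fold lower, against 25.1%. The median peak near the 41 genes had a ratio of 1.35 and 1.27, while the median promoter peak had 0.95 and 0.95. By gene, 4 of 41 reached 1.5 in both libraries, a count for which no share of all genes was computed. They were Tyms at 1.69 and 2.62, Dscc1 at 1.78 and 1.62, Cdca7 at 1.75 and 1.60, and Wdr76 at 1.59 and 1.55. Of these, Tyms and Dscc1 were among the 14 genes with higher RNA. Clspn, with the largest RNA ratio, was at 1.72 (1.54 to 1.93) and 1.24 (1.03 to 1.504), and Cdc6 at 1.36 and 1.34. The peaks of Pcna stood at 1.26 and 1.25 and those of Pola1 at 1.49 and 1.31.

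**Figure D4:**
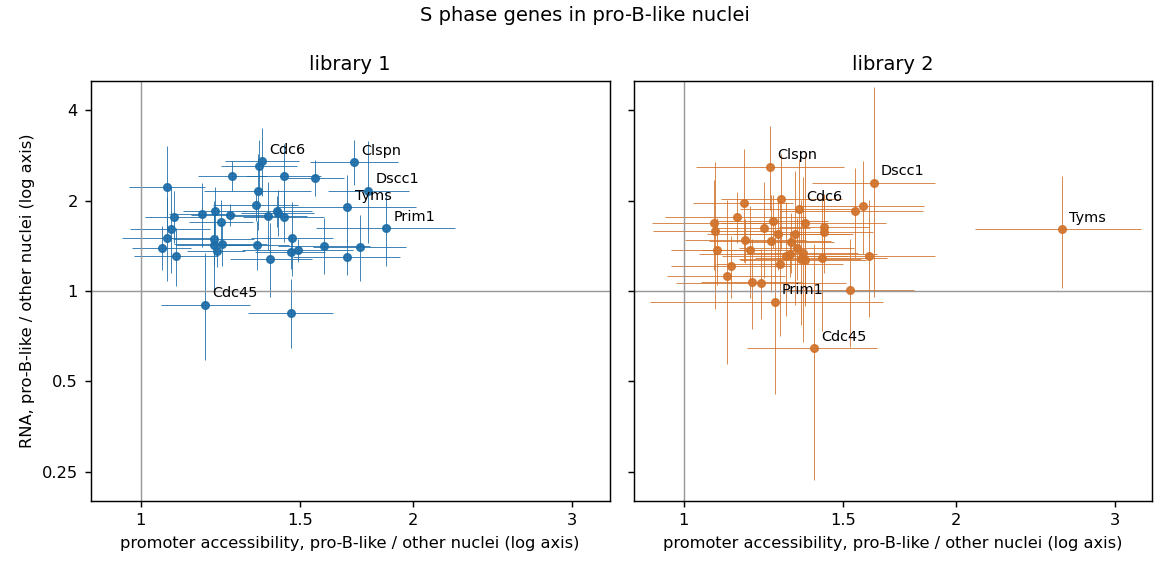
Ratio of RNA level (y axis, log scale) against ratio of promoter accessibility (x axis, log scale) in pro-B-like over all other nuclei, 1 point per gene, in library 1 (left) and library 2 (right), with lines for exact 95% intervals of counting error and grey lines at 1. All points lie to the right of 1, most lie above 1, and Tyms in library 2 is farthest to the right at 2.62.

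Accessibility and RNA did not rank the classes alike. NeuP-like nuclei, among the lowest for RNA, had 2490 (2399 to 2584) and 2341 (2273 to 2412) ATAC CPM at the 41 genes, 1.21 and 1.21 times the rest. All promoter peaks were at 1.17 and 1.12 there. Cluster 0 was among the lowest, at 1827 (1802 to 1853) and 1769 (1746 to 1791), or 0.86 and 0.89, with RNA level with the rest. GMP-like nuclei had 0.89 and 0.94 and HSC-like nuclei 0.91 and 0.97 times the rest. All promoter peaks were at 0.93 and 0.95 in cluster 0, 0.96 and 0.97 in GMP-like and 1.03 and 1.05 in HSC-like nuclei.

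Among single nuclei, accessibility at the 41 genes grew only slightly with their RNA. Over all nuclei of library 1 it went from 1978 (1939 to 2018) ATAC CPM in nuclei with 0 to 2 UMIs to 2263 (2217 to 2309) in those with 10 or more. In library 2 the values were 1897 (1857 to 1939) and 2077 (1940 to 2223), whose intervals just failed to meet. The rise over all nuclei mixes classes. Pro-B-like nuclei were 25 of the 450 nuclei in the first group of library 1 and 131 of the 378 in the last. In library 2 they were 8 of 377 and 3 of 41. Within pro-B-like nuclei of library 1 the 4 groups had 2586, 2633, 2593 and 2574 ATAC CPM, with overlapping intervals. In library 2 the first 3 groups had 2217, 2172 and 2259 ATAC CPM, and the last held 3 nuclei.

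Levels of the 41 genes were lower in library 2 over all nuclei, as were those of most genes. Of the 39 genes, 33 had a ratio of library 2 to library 1 below 1, with a median of 0.85, while the median of all 6904 genes was 0.76 (a shift of -0.40 on the log2 scale). Relative to that shift, 29 of the 39 genes lay above it. At a fold of 1.5, 4 were lower in library 2, against 31.1% of all genes, and 0 were higher, against 1.43%. The 4 were Brip1 at 0.51 (0.45 to 0.58), Dscc1 at 0.53 (0.40 to 0.71), Clspn at 0.65 (0.57 to 0.73) and Pola1 at 0.65 (0.61 to 0.68). Cdc6, at 1.19 (1.01 to 1.41), was the 1 gene whose interval lay above 1. Ratios over all nuclei mix the level of a gene with the make-up of the libraries. Pro-B-like nuclei were 759 of 5905 nuclei in library 1 and 387 of 7714 in library 2, and Brip1, Dscc1, Clspn and Cdc6 were higher in them. The part of make-up in these ratios was not tested. These counts depended on the scaling: with the UMIs of all genes as the denominator 17 were lower in library 2, and with median-of-ratios scaling 0 were lower and 2 higher. The shares of 31.1% and 1.43% hold for the main scaling only. Either change of scaling shifts all genes by the same factor, so it is no shift of the 41 genes in particular.

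Within pro-B-like nuclei, 14 of the 41 genes had enough UMIs to be compared between the libraries, and 6 of the 14 were at least 1.5-fold lower in library 2, against 31.4% of 1110 genes. Their median ratio was 0.70 beside 0.77 for all genes in these nuclei. Pola1 went from 766 to 499 CPM, a ratio of 0.65 (0.54 to 0.78), and Atad2 from 852 to 534 CPM, a ratio of 0.63 (0.52 to 0.75). Rrm1, at 0.95 (0.76 to 1.18), and Mcm7, at 1.07 (0.80 to 1.43), had intervals that included 1. With the other denominator 11 of the 14 were lower, and with median-of-ratios scaling 0. Here too the scaling shifts all genes by the same factor, and the 31.4% holds for the main scaling only. The libraries hold unknown conditions, so these ratios compare libraries and not treatments.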

How the data were processed

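RNA and open chromatin (10x Genomics Multiome, nuclear RNA) were read from Lin-cKit+ nuclei of Ctrl and Lig mice. Per the submitters' processing notes, the tools were Cell Ranger ARC 2.0.0, Seurat 4.0.3 and Signac 1.3.0, with the builds GRCm38 and mm10. The deposited counts, 1 matrix of raw UMIs per gene and of ATAC counts per peak, were made by the authors without normalization and pool both conditions. No label ties the barcode suffixes to samples, so the 4 samples were compared in no group. Members and gene lists were chosen with earlier results of these data known.

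Nuclei with at least 200 genes and 1000 to 50000 peak counts were kept. No nuclei were removed as doublets, since the caller marked 3 of 13619 nuclei (0.022%) and so had not worked. Clusters were made in R 4.3.3 with Seurat 5.3.0 and irlba 2.3.5.1 from 30 principal components of 2000 variable genes and LSI components 2 to 30 of the peaks, corrected between the libraries, at a resolution of 0.8. The cell cycle lists, 3 genes of the ribosomal locus and 90 peaks within 5 kb of the members were left out. A cluster was named only from marker genes, and never where none was among its 10 leading genes.

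Summed UMIs per class and library were divided by all UMIs outside the 3 ribosomal genes. The other steps used Python 3.11.15, numpy 2.4.6, scipy 1.17.1, pandas 2.3.3 and matplotlib 3.10.9. Intervals are exact (Poisson for levels, conditional binomial for ratios, Clopper-Pearson for shares), and for ATAC they count pairs, since 82.5% of the nonzero peak counts were even. A gene with at least 200 UMIs was called where its ratio passed 1.5 in both libraries, which is a fold and not a test. The step that makes these calls was tested on simulated data.

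All 41 members are accounted for by role. Values are given for those with at least 200 UMIs, in full for the 12 with the most UMIs and, in classes of at least 100 nuclei per library, for the 3 largest ratios and the smallest. Of the other lists, the 3 largest ratios in the class with the highest level of the members are named. E2f1 and further genes named beside a count were chosen after their values were seen. Alternatives changed the denominator, the scaling, the clustering, the limits on nuclei, the fold, the UMI minimum, the thinning and the peak distance.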

Additional observations from a re-analysis of the deposited data

How the results depend on the processing

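Of 884 values under alternatives, 90 of the values that answer a comparison stayed within the range of the counting error (or, for counts, within 1.5 times) and 38 moved, as did 143 of the others. Of the ratios, 21 came to lie on the other side of 1, of which 12 also moved beyond the counting error. They include the pDCP-like level where cell cycle genes were kept (0.73 and 0.73) or the libraries not corrected (0.62 and 0.85), which gave that name to other, smaller clusters, the library 2 level of NeuP-like (1.02) and B cell-like nuclei (0.74) with at least 500 genes and of EryP-like nuclei (0.97) under median-of-ratios scaling, and the pro-B-like G2/M ratio, which was 0.92 in library 2 at 500 UMIs and 1.30 in library 1 without thinning. The pro-B-like level and accessibility stayed above the rest under every alternative tried. With the UMIs of all genes as the denominator, the ratio of the 41 genes to the rest was 1.73 in pro-B-like nuclei of library 1, 0.73 in HSC-like nuclei of library 1 and 0.94 in GMP-like nuclei of library 2, and 17 genes over all nuclei and 11 in pro-B-like nuclei were lower in library 2. With median-of-ratios size factors it was 1.33 in pro-B-like and 0.86 in HSC-like nuclei of library 2 and 0.91 and 0.99 in GMP-like nuclei, 9 genes were raised in pro-B-like nuclei, 2 were higher in library 2, 0 were lower over all nuclei and 0 in pro-B-like nuclei. At a resolution of 0.4 the library 1 ratio was 0.89 in GMP-like and 0.79 in HSC-like nuclei, with cell cycle genes kept in the clustering 0.87 and 0.83, and with no correction between the libraries 0.765 in GMP-like nuclei. The names covered other nuclei there. HSC-like nuclei went from 254 and 336 to 934 and 1307 at a resolution of 0.4 and 497 and 742 with cell cycle genes kept. GMP-like nuclei went from 329 and 759 to 476 and 996, to 499 and 952, and without correction to 60 and 698. These ratios are therefore not of the same class measured again. With at least 500 genes per nucleus, pro-B-like nuclei had 1.59 and 1.32 and 9 genes raised. With limits on halved peak counts, HSC-like nuclei had 0.72 and 1.01 and the pro-B-like accessibility ratio was 1.26 in library 1. With peaks within 5 kb that ratio was 1.26 in library 2. At a fold of 2, 2 genes were raised in pro-B-like nuclei, and with at least 50 UMIs 1 was lowered. The counts of genes under alternatives stand here without the share of all genes at the same setting, so they cannot be read against it. The share of pro-B-like nuclei with at least 3 UMIs of the 41 genes was 74.5% and 57.5% when thinned to 500 UMIs and 89.5% and 74.2% when not thinned. It was 97.6% in library 1 for at least 2 UMIs and, in an alternative chosen after seeing the data, 31.3% and 4.69% for at least 10. The G2/M ratio over all nuclei was 1.31 and 1.08 when thinned to 500 UMIs and 2.18 and 1.59 when not thinned. The causes of these shifts were not tested. No paired analysis was possible because each group held 1 sample and the barcodes carry no replicate number. Most classes gave few UMIs per gene, with a median of 17 and 16 in HSC-like and 6 and 10 in NeuP-like nuclei, so a difference for a single gene was often not detectable there.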
